A study of Mus musculus with 6 samples.

Results

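The DNA topoisomerases and the tyrosyl-DNA phosphodiesterase Tdp1 were examined in the embryonic mouse brain with and without Tdp2. The genes were Top1, Top1mt, Top2a, Top2b, Top3a, Top3b and Tdp1, and their rows were those array rows whose annotation names 1 of these genes and no other. All 7 genes had such a row, 9 rows in all of 21789 rows that name 1 gene, since Top2a and Tdp1 had a second row each. Another 2 rows name Top2a together with Hibadh and were left out by this rule. Whole brains, from olfactory bulb to brain stem, were taken at embryonic day 16.5 from 3 wild-type embryos and 3 Tdp2Δ1-3 embryos, and RNA from each brain was read on 1 Affymetrix Mouse Gene 1.0 ST array. Tdp2Δ1-3 is an allele that lacks exons 1 to 3 of Tdp2. The labels call the samples of a genotype biological replicates and give no strain, sex, litter or Cre driver. The series text describes the brains as 3 independent pairs of wild type and mutant, without saying which brains form a pair.

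Topoisomerases cut DNA, let strands pass or swivel, and reseal the cut, and during the cut an active-site tyrosine stays bound to a DNA end. Type I enzymes cut 1 strand and type II enzymes cut both strands. If resealing fails, the enzyme stays trapped on the DNA, and Tdp1 removes trapped topoisomerase I from the 3′ end while Tdp2 removes trapped topoisomerase II from the 5′ end. In brain, Top2a is known as the type II enzyme of dividing progenitors and Top2b as that of postmitotic neurons.

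Promoter sequence is shown for Top2a and Top2b, the substrates of Tdp2, and for Top1, the type I enzyme with the largest difference, because these genes differed in the size of their genotype difference. Each is the 250 bases before the RefSeq transcription start on GRCm38.p6, and capitals mark matches on either strand to 3 motifs spelled out after the sequences.
Top2a promoter (chr11:99024190-99024439, minus strand): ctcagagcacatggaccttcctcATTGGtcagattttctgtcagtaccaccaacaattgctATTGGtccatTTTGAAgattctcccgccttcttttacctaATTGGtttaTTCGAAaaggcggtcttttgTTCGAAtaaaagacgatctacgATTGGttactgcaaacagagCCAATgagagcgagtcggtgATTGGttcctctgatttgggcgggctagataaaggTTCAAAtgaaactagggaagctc
Top2b promoter (chr14:16364956-16365205, plus strand): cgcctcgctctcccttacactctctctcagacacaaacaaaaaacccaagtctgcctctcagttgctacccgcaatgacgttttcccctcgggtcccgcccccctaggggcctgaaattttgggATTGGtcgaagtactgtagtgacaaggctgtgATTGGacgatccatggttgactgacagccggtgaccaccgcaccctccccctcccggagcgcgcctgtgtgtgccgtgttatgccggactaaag
Top1 promoter (chr2:160645647-160645896, plus strand): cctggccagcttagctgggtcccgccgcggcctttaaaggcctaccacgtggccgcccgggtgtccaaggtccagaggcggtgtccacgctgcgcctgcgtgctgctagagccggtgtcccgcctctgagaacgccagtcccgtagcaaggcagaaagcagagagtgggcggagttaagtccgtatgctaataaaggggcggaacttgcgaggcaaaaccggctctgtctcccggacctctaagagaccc

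The motif CCAAT is the core of the NF-Y box, and its reverse reads ATTGG. The cell cycle genes homology region, CHR for short, is known from promoters of cell cycle genes, and its usual core is TTTGAA with the reverse spelled as TTCAAA. A variant CHR core, TTCGAA on either strand, was searched as well. The Top2a window held 6 NF-Y cores, 1 as listed and 5 reversed, while 33.8% of all 32851 promoters in the table held at least 1 and 0.0578% held 6 or more. It also held 2 usual and 2 variant CHR cores, against 16.0% and 1.34% of all promoters with at least 1 of each. The Top2b window held 2 NF-Y cores, a number that 10.1% of all promoters reach or pass, and no CHR core. No motif of these 3 was matched in the Top1 window, which held 3 GC boxes, searched as GGGCGG and its reverse complement. The GC box was found in 32.7% of all promoters. In the Tdp1 window there was 1 usual CHR core and 1 GC box, in the Top2a and Top2b windows 1 GC box each, and in the Top3b window 1 NF-Y core. No matches overlapped in these 5 windows. Among 28 promoters of 26 genes of cycling cells, a list described with its values further on, 82.1% held an NF-Y core and 35.7% a CHR core of either kind, against 17.1% of all promoters for the CHR. A match describes letters in a window and does not show that a factor binds there. Top1mt, Top3a and Tdp2 were not in the promoter table.

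The values are on a log2 scale with the median of each row set to 0 across the 6 arrays, so levels cannot be compared between genes and an order of the members by abundance cannot be given. For the same reason the brain identity of the samples could not be checked by the level of marker genes. Array medians over the tested rows lay between -0.0097 and 0.012. Tdp2 itself was 1.11 ± 0.22 in wild types and -0.96 ± 0.08 in mutants (SD, n = 3 each), with no overlap, although the position of its probes relative to the deleted exons is not given. A row was called when its adjusted p from limma's moderated test, with Benjamini-Hochberg adjustment over 23410 rows, was under 0.05. By this rule 1515 rows or 6.47% were called, 2.34% higher and 4.13% lower in mutants. With a fold of at least 1.5 in addition, 0.641% were called.

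Of the 9 member rows 1 was called, that of Top2a, both by adjusted p (background 6.47%) and with the 1.5-fold limit (background 0.641%). The other 8 were not called, and their 95% confidence intervals all lay within 1.5-fold in either direction. In 3 rows, those of Top2a, Top1 and Tdp1, every mutant value was higher than every wild-type value, as in 13.1% of all tested rows. The median difference, mutant minus wild type, was 0.06 over the 9 rows and 0.013 over all tested rows. The differences ran from -0.16 in Top1mt to 0.72 in Top2a.

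**Figure D1:**
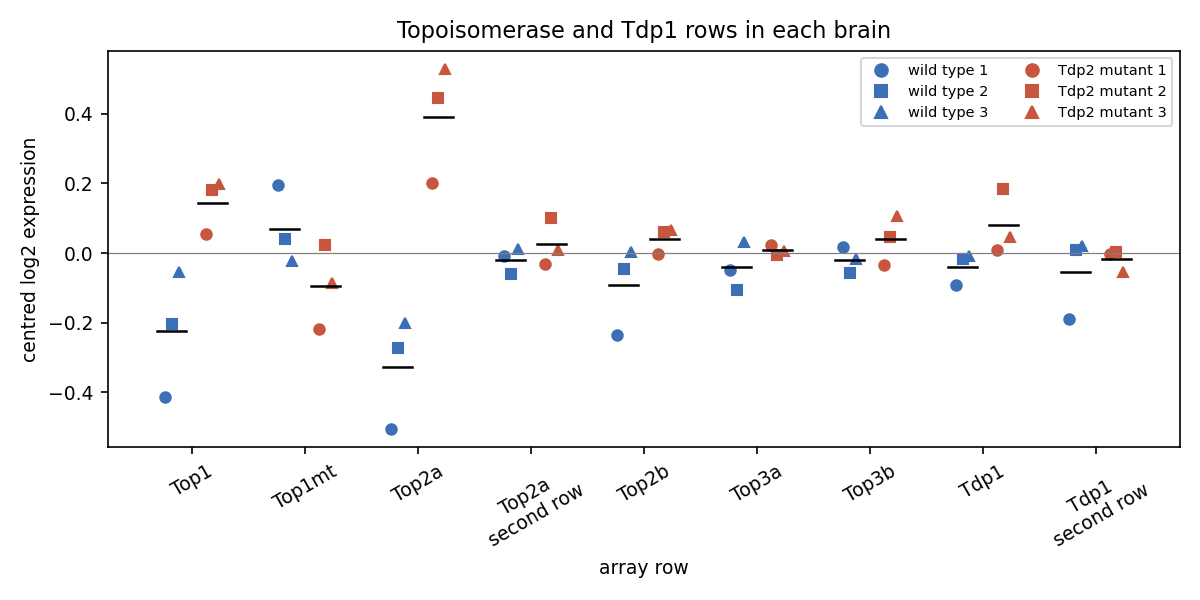
Centred log2 expression of the 9 member rows (x axis) in each of the 6 brains, with wild types in blue, Tdp2 mutants in red, replicate numbers as symbols and black bars at group means. Top2a shows the widest gap between genotypes, from a mean of -0.33 to 0.39, and Top3a and Top3b lie near 0 in all brains.

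The type II enzymes came first because trapped topoisomerase II is the substrate of Tdp2. Top2a separates sister chromatids and helps to condense chromosomes in dividing cells. In order of replicate number, the wild types measured -0.51, -0.27 and -0.20 and the mutants 0.20, 0.44 and 0.53 in centred log2 units. All mutants lay above all wild types, and wild-type replicate 1 was the lowest of all brains. Top2a rose by 0.72 ± 0.10 (SE, n = 3 per genotype), 1.65-fold with a 95% interval of 1.39 to 1.94 (limma adjusted p = 0.011). In other fits the difference of Top2a ranged from 0.63 to 0.81 and its adjusted p from 0.00057 to 0.067. The call was lost only without mutant replicate 2, where the difference was 0.69 (limma adjusted p = 0.067) and 145 rows of the whole table were called in place of 1515.

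The second row of Top2a rests on a single cDNA accession, which the annotation also places on the 2 rows shared with Hibadh. Its values were -0.0077, -0.06 and 0.01 in wild types and -0.03, 0.10 and 0.0077 in mutants. The groups overlapped, and the difference was 0.04 ± 0.05 (SE; limma adjusted p = 0.69). The rows shared with Hibadh differed by 0.06 and 0.03 (limma adjusted p = 0.54 and 0.86). The rise of Top2a was thus measured on the row built from its RefSeq transcript and 3 further accessions, and the second row did not show it.

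Top2b, the type II enzyme that persists in neurons and acts at promoters of transcribed genes, had values of -0.23, -0.05 and 0.0027 in wild types and -0.0027, 0.06 and 0.07 in mutants. The groups overlapped, and wild-type replicate 1 stood below the other 5 brains. The difference was 0.13 ± 0.07 (SE), a fold of 1.10 with a 95% interval of 0.987 to 1.22 (limma adjusted p = 0.30). Without wild-type replicate 1 it was 0.06. No fit called Top2b, with adjusted p from 0.12 to 0.55.

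Within each brain, the centred value of Top2a minus that of Top2b compares the paralogues directly. It was -0.27, -0.23 and -0.20 in wild types and 0.20, 0.38 and 0.46 in mutants. The mean was 0.58 higher in the mutants, with no overlap between genotypes. The exact two-sided permutation test gave p = 0.10, which is the smallest that 3 brains against 3 allow, and 0.13 after adjustment over 4 pairs. The shift exceeded the SD within genotypes (0.035 in wild types and 0.13 in mutants), in a design that cannot reach 0.05 by this test. It rests on the same Top2a values as the call above and is no separate evidence of the Top2a rise.

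**Figure D2:**
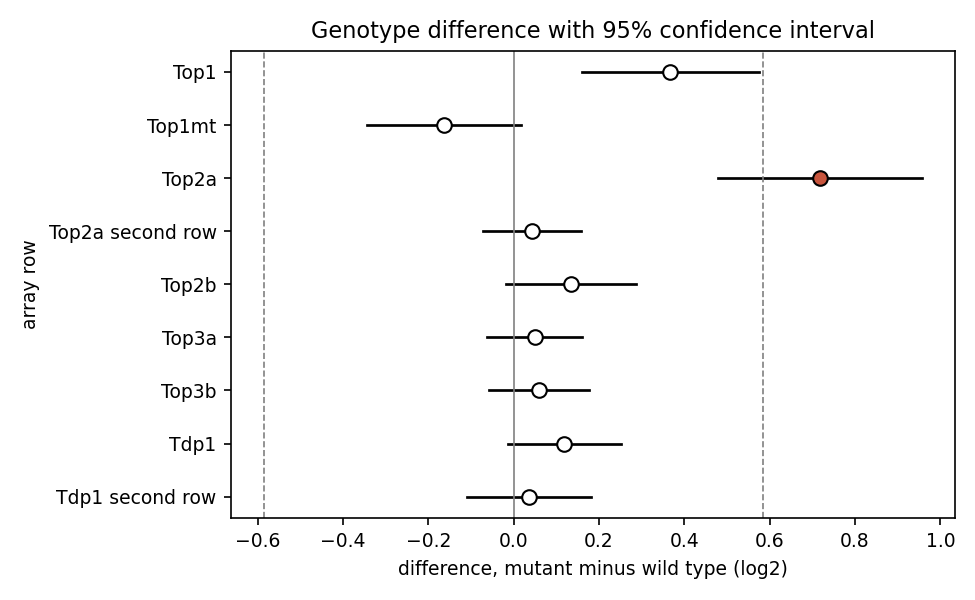
Difference between genotypes, mutant minus wild type on the log2 scale (x axis), for each member row, with 95% confidence intervals from limma. The filled point, Top2a at 0.72, is the called row, and dashed lines mark a fold of 1.5 in either direction.

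The type I enzyme Top1 relaxes supercoils ahead of RNA and DNA polymerases. Its values were -0.41, -0.20 and -0.05 in wild types and 0.05, 0.18 and 0.20 in mutants. Every mutant was above every wild type, but the closest pair, wild-type replicate 3 and mutant replicate 1, lay on either side of 0 by 0.05. The centring fixes equal distances from 0 for the nearest pair of any row whose groups do not overlap. The difference was 0.37 ± 0.09 (SE), a fold of 1.29 with an unadjusted 95% interval of 1.12 to 1.49 (limma adjusted p = 0.052), and it did not pass. It lay on the margin of the threshold. Top1 passed after cyclic loess normalization (0.43, limma adjusted p = 0.044), with array weights (0.37, adjusted p = 0.0039) and when only rows naming exactly 1 gene were tested (0.37, adjusted p = 0.047). With the replicate number as a block it passed too (0.37, limma adjusted p = 0.011), though the labels do not say that numbers mark the pairs. It also passed without wild-type replicate 3 (0.45, limma adjusted p = 0.031) or mutant replicate 1 (0.41, adjusted p = 0.042), and with the other arrays left out its adjusted p ran up to 0.19.

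Top1mt encodes the topoisomerase I that relaxes mitochondrial DNA, and it was the only member row with a lower mean in mutants. The values were 0.20, 0.04 and -0.02 in wild types and -0.22, 0.02 and -0.09 in mutants. Mutant replicate 2 lay within the wild-type range, so the groups overlapped. The difference was -0.16 ± 0.08 (SE; limma adjusted p = 0.28), and it ranged from -0.22 to -0.08 in other fits. Top1 minus Top1mt was -0.61, -0.24 and -0.03 in wild types and 0.27, 0.16 and 0.28 in mutants, a mean difference of 0.53 (exact two-sided permutation p = 0.10, adjusted over 4 pairs 0.13).

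The type IA enzymes pass single strands through a cut, Top3a with the Bloom helicase Blm in dissolving recombination intermediates and also in mitochondria, Top3b with the scaffold Tdrd3 on DNA and RNA. Top3a values were -0.05, -0.11 and 0.03 in wild types and 0.02, -0.0060 and 0.0060 in mutants. Top3b values were 0.02, -0.06 and -0.02 in wild types and -0.03, 0.05 and 0.11 in mutants. In both genes the groups overlapped. The differences were 0.05 ± 0.05 for Top3a and 0.06 ± 0.05 for Top3b (SE; limma adjusted p = 0.64 and 0.57), with 95% intervals of 0.958 to 1.12 and 0.961 to 1.13 as folds. In other fits Top3a ranged from 0.016 to 0.085, lowest without wild-type replicate 2 and highest without wild-type replicate 3, and Top3b from 0.025 to 0.096, lowest without mutant replicate 3 and highest without mutant replicate 1. Top3a minus Top3b differed by -0.010 between genotypes (exact two-sided permutation p = 0.90).

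Tdp1 is the phosphodiesterase that acts on 3′ ends, and its mutation is known from a human ataxia with neuropathy. Its values were -0.09, -0.02 and -0.0078 in wild types and 0.0078, 0.18 and 0.05 in mutants. All mutants were higher, with 0.0078 on either side of 0 for the nearest wild type and mutant, distances that the centring makes equal. The difference was 0.12 ± 0.06 (SE), a fold of 1.09 with a 95% interval of 0.991 to 1.19 (limma adjusted p = 0.28). It was 0.07 without mutant replicate 2, and up to 0.15 in other fits. The second Tdp1 row, from a single cDNA accession, had values of -0.19, 0.0074 and 0.02 in wild types and -0.0028, 0.0028 and -0.05 in mutants. Its groups overlapped, with a difference of 0.04 ± 0.06 (SE; limma adjusted p = 0.81). Set against Tdp2 within each brain, Tdp1 minus Tdp2 was -0.99, -1.12 and -1.35 in wild types and 1.06, 1.08 and 0.98 in mutants (mean difference 2.19, exact two-sided permutation p = 0.10). Most of that gap came from the Tdp2 term, since Tdp2 itself fell by 2.07 ± 0.10 (SE; limma adjusted p = 0.00035).

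Across the 6 brains the first rows of Top1 and Top2a varied together (Pearson r = 0.96), as did those of Top1 and Top2b (0.95) and of Top2a and Top2b (0.85). Top1mt ran against Top1 (-0.70). These are descriptions over 6 arrays that share the genotype difference and the low values of wild-type replicate 1, which was the lowest wild type in 5 of the 9 rows. Mutant replicate 1 was the lowest mutant in 7 of them. The 5 genes whose pattern was most like Top2a were Ska2 (r = 0.999), H1f5, Neil3, Usp3 and Kif23 (all at least 0.997). Their differences ran from 0.22 to 0.66, and a rise in mutants is fixed by choosing genes this close to Top2a. Ska2 encodes a kinetochore protein and Kif23 a kinesin of cytokinesis. The 5 most like Top2b were Peli1 (r = 0.999), Strada, Ddx50, Utp6 and Eif4e (0.994 or more). None of them was called, which largely follows from choosing genes that vary like the uncalled Top2b. Those most like Top1, listed after its values were seen, were Numa1 (r = 0.998), Cenpk, Prkra, Heatr6 and Kif4.

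Top2a is a gene of dividing cells, so its values were set beside 30 measured genes of cycling cells that do not include it. Of these 28 rose, and the other 2, Ccne1 at 0.18 and Ccne2 at 0.31, did not pass. By the same rule 2.34% of all tested rows rose. This list and those further on were chosen with earlier results of these data known. Their counts beside such shares are descriptions and no test. The list's median difference was 0.53, against 0.013 over all tested rows. The mitotic genes Bub1, Kif11 and Kif2c rose by 0.78, 0.74 and 0.70. Without mutant replicate 2, 3 of the list were called, and without wild-type replicate 2, 18. Only 2 of the 30 had a larger difference than Top2a, and 27 had a larger one than Top1. In bulk brain RNA, more cycling cells and more of these RNAs per cycling cell cannot be told apart.

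The median of the cycling genes measured -0.42, -0.19 and -0.18 for wild types and 0.18, 0.31 and 0.37 for mutants. Top2a minus that median was -0.09, -0.08 and -0.02 in wild types and 0.02, 0.14 and 0.16 in mutants, a mean shift of 0.17 where Top2a alone shifted by 0.72. Top1 minus the median was 0.0021, -0.01 and 0.13 in wild types and -0.12, -0.12 and -0.17 in mutants, a mean shift of -0.18. Top2b minus the median shifted by -0.42. The genotype difference was larger in Top2a than in the median of the cycling genes and smaller in Top1 and Top2b, and the part of cycling cells in these differences was not tested.

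**Figure D3:**
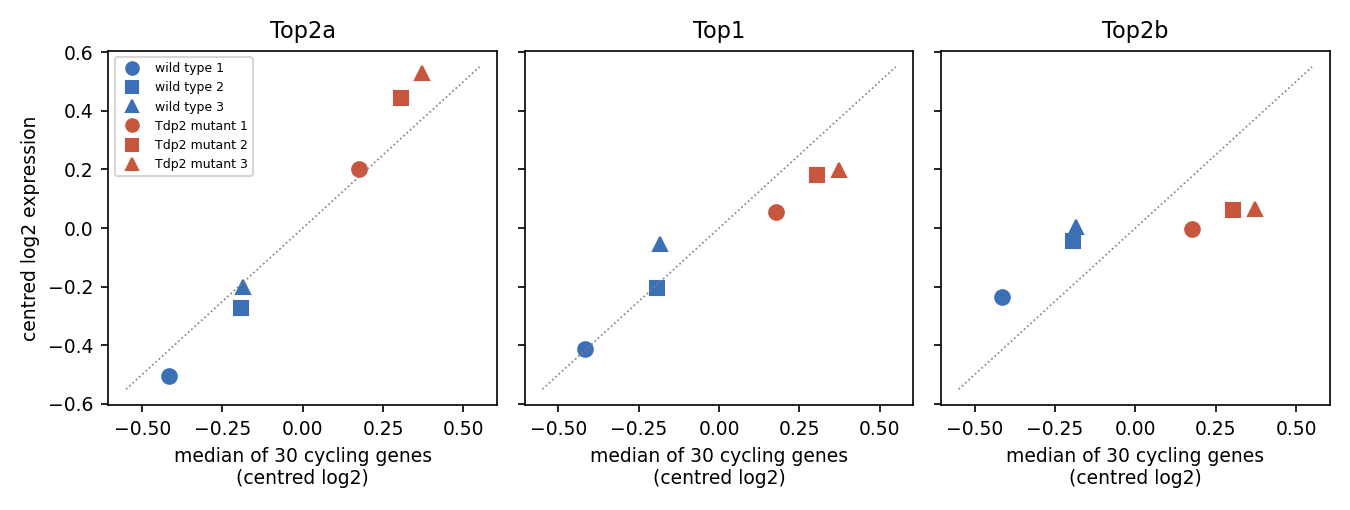
Centred log2 expression of Top2a, Top1 and Top2b (y axis) against the median of 30 cycling-cell genes in the same brain (x axis, centred log2), 1 point per brain, with the dotted line marking equal values. Top2a runs from -0.51 to 0.53, below the line in the wild types and above it in the mutants, and Top2b stays between -0.23 and 0.07.

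Other cell markers moved in the same arrays, and their part in the values of the members was not tested. Over all tested rows, 2.34% were called higher and 4.13% lower in mutants. Of 10 radial glia genes 3 rose, Nes, Prom1 and Vim. Another 3 had negative differences without a call, Slc1a3 (-0.26), Fabp7 (-0.08) and Hes5 (-0.07). Of 6 intermediate progenitor genes 5 rose, led by Neurog2 at 0.75, Gadd45g at 0.63 and Btg2 at 0.51. Of 22 genes of postmitotic neurons, the cells in which Top2b is the main type II enzyme, 12 fell, led by Thy1 at -0.91, Eno2 at -0.69 and Nrgn at -0.68. The other 10 were not called, among them Map2 (-0.04), Dcx (-0.03) and Tubb3 (-0.03), and Gad2 alone was positive (0.03). The neuronal median was 0.11 to 0.18 in wild types and -0.35 to -0.07 in mutants, while the Top2b mean was -0.09 in wild types and 0.04 in mutants. Falls were also called in 3 of 6 astrocyte genes (Slc4a4, Aqp4 and Gja1) and 2 of 5 oligodendrocyte lineage genes (Olig1 and Pdgfra). The same held for 2 of 7 meningeal genes (Ogn and Slc6a13) and 1 of 5 endothelial genes (Cldn5). Positive differences without a call were found in the astrocyte genes Gfap (0.07) and Slc1a2 (0.03), the meningeal Lum (0.08) and the endothelial Pecam1 (0.04). Of 5 microglial genes none was called by limma, and 0 had an unadjusted p under 0.05. Of 7 red-cell genes Hbb-y and Hba-x rose, by 3.79 and 1.44, and the difference of Hbb-y was the highest of all tested rows. The other 5 were not called, with differences from -0.07 in Alas2 to 0.135 in Hbb-bh1. Without mutant replicate 2, 1 neuronal, 1 radial glia and 2 intermediate progenitor genes were called, and no astrocyte, oligodendrocyte lineage, meningeal or endothelial gene. Without wild-type replicate 2 the calls were 4 neuronal, 1 radial glia, 3 intermediate progenitor and 1 meningeal, and 0 in the other 3 of those lists. Neuronal falls numbered 5 without wild-type replicate 1 and 6 without mutant replicate 3, and with either of these omitted 1 astrocyte, 1 oligodendrocyte lineage, 1 meningeal and no endothelial gene fell. Without wild-type replicate 3, 1 oligodendrocyte lineage and 1 meningeal gene fell.

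Partners of the enzymes were read from lists ordered by enzyme. For topoisomerase II, none of 14 genes of adduct removal and end joining was called by limma, and 3 had an unadjusted p under 0.05. Over all tested rows, 5115 of 23410 had an unadjusted p under 0.05. Xrcc5, which encodes the Ku80 end-binding protein, had a difference of 0.34 (limma adjusted p = 0.064) and the nuclease gene Mre11a 0.20 (adjusted p = 0.11). The list's median was 0.08, and 13 of the 14 were positive, against 13294 of 23410 rows overall. Without mutant replicate 1, 2 of these genes were called.

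For topoisomerase I, 1 of 14 genes of adduct and single-strand break repair rose. Over all tested rows, 2.34% rose and 6.47% were called in either direction. The gene called here was Eme1, a subunit of the Mus81 structure-specific nuclease, at 0.37 ± 0.05 (SE, limma adjusted p = 0.011). The flap nuclease gene Fen1, which acts in replication as well, had a difference of 0.22 (limma adjusted p = 0.063), and the list's median was 0.11. Eme1 was not called without mutant replicate 2, and without mutant replicate 1 there were 2 calls. Of 7 partners of the type IA enzymes none was called by limma, and 2 had an unadjusted p under 0.05, against 5115 of 23410 rows overall. These 2 were Blm at 0.30 (limma adjusted p = 0.080) and Rmi2 at 0.12 (adjusted p = 0.15). Tdrd3, the scaffold of Top3b, had a difference of 0.0094. Without mutant replicate 1 there was 1 call among these partners.

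Genes that work beside Top2a on mitotic chromosomes formed another list. Its 10 genes were condensin subunits, the chromosome kinesin Kif4 and the replication stress factor Topbp1. Of these genes 7 rose, with a median difference of 0.43, where 2.34% of all tested rows rose. Ncapg rose by 0.78, Kif4 by 0.67, Smc4 by 0.54, Ncaph by 0.51, Topbp1 by 0.38 and Ncapd2 by 0.35. Of these 10 genes, 2 were called without wild-type replicate 2, none without mutant replicate 2 and 1 without mutant replicate 3, and condensin genes are themselves genes of dividing cells. Among 8 genes of cohesin, Ctcf and the BAF complex, which meet Top2b at chromatin loop anchors, none was called by limma. An unadjusted p under 0.05 was seen in 2, against 5115 of 23410 rows overall. They were Smc1a at 0.22 (limma adjusted p = 0.059) and Rad21 at 0.18 (adjusted p = 0.17).

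**Figure D4:**
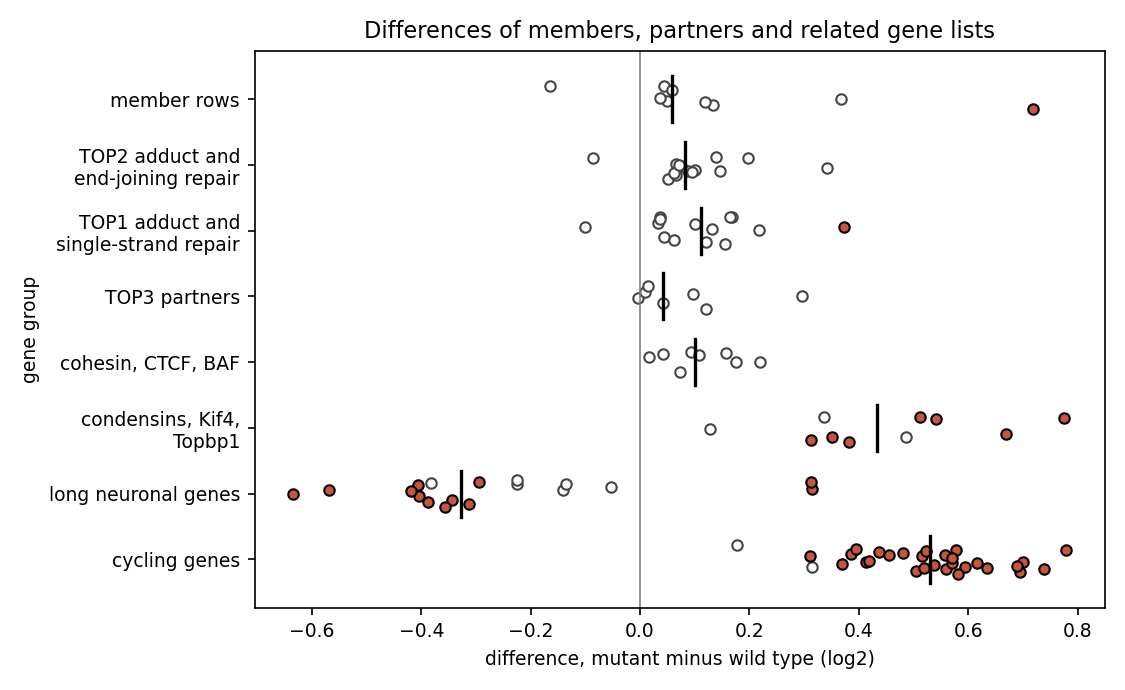
Difference between genotypes on the log2 scale (x axis) for each gene of the member, partner, long neuronal and cycling lists (y axis), with called genes filled and vertical bars at list medians. The condensin list (median 0.43) and cycling list (0.53) lie to the right, the long neuronal list (-0.33) to the left, and the repair partners near 0.

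Very long neuronal genes are known to need topoisomerase activity for their transcription. Of 18 measured, 10 fell and 2 rose, with a median of -0.33, where 4.13% of all tested rows fell and 2.34% rose. The postmitotic neuron markers fell in the same arrays (12 of 22, median -0.38), and their part in this list was not tested. Opcml fell by 0.63, Dlg2 by 0.57, Cntn5 by 0.42, Lsamp by 0.41, Cntn4 by 0.40 and Csmd3 by 0.39. The rises, named after their values were seen, were Dcc and Nfia at 0.31 each. The falls numbered 6 without wild-type replicate 1 and 3 without either replicate 2, of wild types or of mutants. Both rises kept their call when mutant replicate 1 was omitted and lost it when any other array was.

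**Figure D5:**
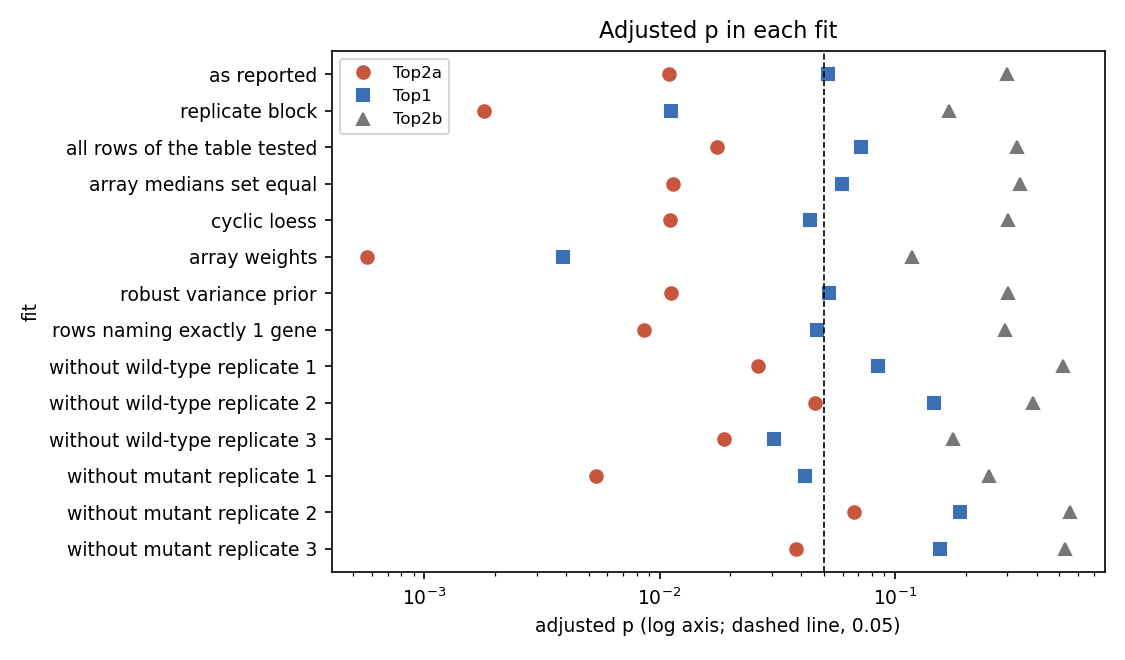
Adjusted p of Top2a, Top1 and Top2b (x axis, log scale) in the reported fit and in each of 13 other fits (y axis), with a dashed line at 0.05. Top2a passes in all but 1 fit, without mutant replicate 2, Top1 passes in 6 of the 13 others, and Top2b passes in none.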

How the data were processed

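The deposited table held log2 values normalized by the authors with Robust Multi-Array Average, per the series text. Affymetrix Expression Console is listed in the submitters' processing notes, with no version. The table names no log base. Every row had a median of 0 over the 6 arrays to within 5.0e-07, a centring that the labels do not describe, so no filter on low values was possible. Of 28856 rows, 21789 named 1 gene, 1621 several and 5446 none. Symbols were updated by gene ID through RefSeq genes of GRCm38.p6 (21698 rows matched), and RefSeq promoters of that build covered 5 of 7 members.

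The 23410 rows naming any gene were fitted with limma 3.58.1 in R 4.3.3 (lmFit, eBayes, genotype only, two-sided), and figures were drawn with matplotlib 3.10.9. Errors are moderated standard errors. Other fits used a block for replicate number, omitted each array in turn, and tried other row sets, equal array medians, cyclic loess, array weights, a robust prior and a 1.5-fold limit. On simulated data for this comparison (10 rounds, 23410 rows, 200 changed), 99.9% of rows changed 1.5-fold were recovered and 3.61% of calls were false. These rates describe the simulated rows only, and the rates of missed and false calls on the deposited arrays were not measured. On the deposited arrays, called rows numbered from 145 to 2501 when an array was omitted, and fitted array weights ran from 0.44 to 3.65.

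The members and the 16 lists (182 genes, 174 with a row) were chosen with earlier results of these data known. Lists used the single-gene row with most accessions. Named were all members and Tdp2, up to 6 called genes of each partner list (or the 2 of smallest p), up to 3 called genes of each cell list, and the 5 genes most correlated with Top2a, Top2b or another called member. Only 3 arrays per genotype limit the precision.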

Additional observations from a re-analysis of the deposited data

How the results depend on the processing

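Across 13 alternatives Top2a kept its sign, as did every other member row but the second Tdp1 row, and Top2b, Top1mt, Top3a, Top3b and Tdp1 were called in none. Top2a lay between 0.63 and 0.81 with 1 array left out. The second Tdp1 row was reversed with array weights (-0.0012) and ranged from -0.032 to 0.073 with 1 array left out, negative without wild-type replicate 1. Top1 passed with the replicate block (0.37, limma adjusted p = 0.011), cyclic loess (0.43), array weights (0.37) and rows naming exactly 1 gene (0.37), and ranged from 0.27 to 0.45 with 1 array left out. In those 4 fits 2 member rows were called, and 0 to 2 with 1 array left out, or 0 to 1 at 1.5-fold. Of all rows, 2400 were called with the replicate block, 5425 with array weights, 150 with the 1.5-fold limit and 145 to 2501 with 1 array left out. The cause of these shifts was not tested.

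Deviations of same-numbered brains from their genotype means correlated at 0.21, 0.05 and 0.20. Between differently numbered brains the values ran from -0.22 to 0.06. All brains but mutant replicate 2 correlated best with their own number. That brain correlated at 0.06 with wild-type replicate 3 and at 0.05 with wild-type replicate 2. These values do not settle whether the numbers mark the 3 pairs that the series text mentions. With the replicate block 1 gene each was called among topoisomerase II repair genes, type IA partners and loop partners, and with array weights 3, 2 and 2, and 3 topoisomerase I repair genes. With 1 array left out these lists had 0 to 2, 0 to 1, 0 and, for topoisomerase I, 0 to 2 calls. The mitotic chromosome list had 0 to 9 rises, the cycling list 3 to 28, and the long neuronal list 3 to 11 falls and 0 to 2 rises. Top3a minus Top3b ranged from -0.054 to 0.024, reversed without wild-type replicate 3 or mutant replicate 3. With 3 arrays per genotype and levels centred away, signal over background could not be weighed.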
